A study of Mus musculus with 3 samples.

Results

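The replication-dependent histone genes of the mouse are the clustered, mostly intronless genes whose symbols begin with Hist1h, Hist2h, Hist3h or Hist4h. They were taken here by that name rule from the gene tables of single-cell libraries of embryonic lung, with at least 10 UMIs (unique molecular identifiers, each standing for 1 captured RNA molecule) summed over the 3 libraries. Of 67 genes with such a symbol in both gene tables, 62 met the minimum, out of 30406 genes that the tables share. The members just inside were Hist2h3c2 with 52 UMIs, Hist2h3c1 with 65 and Hist1h2ao with 70. Just outside were Hist1h2aa with 3 UMIs, Hist2h2aa2 with 2 and Hist1h2bq with 1, while Hist1h4m and Hist1h2ba had 0. The 62 genes comprise 6 linker H1 genes, 16 H2A genes, 16 H2B genes, 12 H3 genes and 12 H4 genes.

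The libraries came from lungs of C57/B6 embryos at E14.5 (days of embryonic development), collected from 2 females, pooled and dissociated enzymatically, with red blood cells lysed before staining. Cells were stained with antibodies to Epcam, an epithelial surface protein, and to Icam1, an adhesion molecule, with DAPI added afterwards. There were 2 libraries of cells positive for both proteins (Epcam+ Icam+, replicates 1 and 2) and 1 library of Epcam+ cells, all labelled as the same 10x 3′ chemistry. No genotype, transgene or treatment other than the sort separates the groups. The labels do not say whether the replicates are separate pools of lungs, so every p-value below speaks for these libraries only, and its spread may be technical. In comparisons between the sorts that spread comes from the 2 Epcam+ Icam+ libraries alone. In comparisons of phases it is the spread of the phase differences between the 3 libraries.

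Histone messages of this class are made mainly while DNA is replicated, and they end in a stem-loop instead of a poly(A) tail. The stem-loop binding protein Slbp recognises that structure and guides 3′ processing, export and translation, and the messages are degraded when replication stops. Core histones H2A and H2B pair as dimers and H3 and H4 as tetramers in the nucleosome, while H1 binds the linker DNA. Some members, such as Hist1h2bc, Hist1h1c and Hist3h2a, are known to be able to make polyadenylated messages from longer transcripts as well. The libraries capture RNA through an oligo-dT primer, so what is counted is the part of the histone RNA that this primer can bind. Levels below are in CPM, the UMIs of a gene per 1000000 UMIs of the shared genes. One UMI is 1 molecule tagged near its 3′ end, so no level was divided by gene length.

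In the GENCODE vM21 annotation of GRCm38, 50 of the 62 members lie on chromosome 13, of which 21 span chr13:21715763-22043676 and 29 span chr13:23531050-23764406. Another 9 lie on chromosome 3, 2 on chromosome 11 and 1 on chromosome 6, and 58 of the 62 have a single exon. The stem-loop was searched on the sense strand after the stop codon as 16 bases that begin with GG, have TT at positions 6 and 7, T at position 9 and A at position 11, end with CC, and are free elsewhere. It was found in 44 members. A further 7 had an annotated 3′ UTR without it, and 11 had no annotated 3′ UTR. The sequences of 12 members are given because this structure defines the class and because the annotated transcript runs past it by very different lengths. Capitals mark the arms of the stem.
Hist1h1d: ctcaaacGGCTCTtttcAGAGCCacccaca
Hist1h1e: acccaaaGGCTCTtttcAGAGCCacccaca
Hist1h1c: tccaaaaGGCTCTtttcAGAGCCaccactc
Hist1h2ap: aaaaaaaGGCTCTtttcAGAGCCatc
Hist1h2ae: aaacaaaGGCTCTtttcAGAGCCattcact
Hist2h2ac: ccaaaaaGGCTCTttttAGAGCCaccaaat
Hist1h2bb: acccaaaGGCTCTtttaAGAGCCacccaca
Hist3h2ba: acccaaaGGCTCTtttcAGAGCCaccttcc
Hist1h3e: ccaaaacGGCTCTtttaAGAGCCacctcca
Hist1h3c: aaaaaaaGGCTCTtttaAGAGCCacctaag
Hist1h4d: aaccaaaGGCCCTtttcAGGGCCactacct
Hist1h4h: aaccaaaGGCCCTtttcAGGGCCgcccaca
The stem-loop read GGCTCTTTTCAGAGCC in 25 members, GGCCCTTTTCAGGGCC in 6 and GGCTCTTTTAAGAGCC in 6 others. The annotated transcript ended 3 bases after the stem-loop in Hist1h2ap, 23 bases after it in Hist1h2bb and 46 bases after it in Hist1h4h. It ran on for 151 bases in Hist1h2ae, 770 in Hist1h4d, 840 in Hist1h1c, 1153 in Hist1h1e and 4884 in Hist1h1d. In all, 23 members had over 100 annotated bases beyond the stem-loop, and 12 of these had a poly(A) signal (AATAAA or ATTAAA) within the last 40 bases.

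RefSeq promoters of GRCm38.p6, each running from 250 bases before to 50 after the start, were matched for 57 members. Of these, 49 held CCAAT, 32 held TATAAA and 11 held the octamer ATTTGCAT, on either strand. Among all 32851 promoters of the table, 37.4% held CCAAT, 13.6% held TATAAA and 1.74% held the octamer. The octamer was found in 6 of 16 H2A and 5 of 14 H2B promoters and in none of the H1, H3 and H4 promoters, whereas CCAAT was found in 3 of 11 H4 promoters and in every H1, H2A, H2B and H3 promoter matched. A match describes the letters and does not show that a factor binds there. The 250 bases before the start are given for 4 members whose levels are described below, on the coding strand, with the 3 motifs, on either strand, in capitals.
Hist1h1b, chr13:21780626-21780875, minus strand: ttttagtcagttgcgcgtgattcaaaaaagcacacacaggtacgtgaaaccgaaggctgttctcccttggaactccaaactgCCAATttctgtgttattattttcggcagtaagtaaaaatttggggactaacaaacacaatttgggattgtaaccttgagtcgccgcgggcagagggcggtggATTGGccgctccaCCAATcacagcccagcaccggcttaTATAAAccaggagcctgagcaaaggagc
Hist1h2ap, chr13:21833476-21833725, minus strand: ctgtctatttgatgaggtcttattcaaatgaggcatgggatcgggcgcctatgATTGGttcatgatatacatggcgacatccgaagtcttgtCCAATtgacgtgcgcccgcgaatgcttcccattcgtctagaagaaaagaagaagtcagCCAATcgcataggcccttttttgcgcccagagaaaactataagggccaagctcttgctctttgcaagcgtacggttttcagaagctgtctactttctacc
Hist1h2bb, chr13:23746484-23746733, plus strand: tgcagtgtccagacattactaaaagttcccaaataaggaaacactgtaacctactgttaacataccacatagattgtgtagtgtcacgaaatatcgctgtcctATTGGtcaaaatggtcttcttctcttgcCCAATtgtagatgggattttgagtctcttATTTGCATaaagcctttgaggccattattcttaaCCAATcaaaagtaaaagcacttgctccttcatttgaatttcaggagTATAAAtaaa
Hist1h4d, chr13:23581318-23581567, plus strand: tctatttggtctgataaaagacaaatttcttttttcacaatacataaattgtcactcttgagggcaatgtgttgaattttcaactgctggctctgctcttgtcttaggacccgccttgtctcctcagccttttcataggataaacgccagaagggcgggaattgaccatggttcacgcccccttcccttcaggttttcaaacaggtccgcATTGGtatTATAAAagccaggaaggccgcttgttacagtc
Of these, Hist1h2bb carried all 3 motifs, Hist1h1b and Hist1h4d carried all but the octamer, and Hist1h2ap carried CCAAT alone.

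The 3 libraries held 4739, 4531 and 3697 barcodes and 74170599, 67843828 and 84460347 UMIs, in the order Epcam+ Icam+ replicate 1, replicate 2 and Epcam+, which is kept throughout. After filtering, 2116, 1911 and 2354 epithelial cells remained, with median depths of 20515, 20736 and 28388 UMIs. In these cells Epcam stood at 1052, 1043 and 960 CPM, Icam1 at 202, 195 and 165 CPM and Ptprc, the leukocyte marker CD45, under 0.5 CPM. The sort moves with other differences between the libraries, so the effects of these cannot be told apart from it. The file headers name Cell Ranger 5.0.1 for the Epcam+ Icam+ libraries and 3.0.2 for the Epcam+ library, the gene tables list 32285 and 31053 genes, and the leading 7 bases of the barcodes took 950 values common to both Epcam+ Icam+ libraries but only 127 common to either of them and the Epcam+ library. In GENCODE vM21 no member shared exonic bases on its strand with a gene listed in only 1 table, but 4 overlapped another listed gene on the same strand. Listed genes absent from vM21 were not searched, and the annotation behind the gene tables is not given. Many members are near-identical copies, so the split of counts among them depends on how reads with several matches were handled, which is not given in the sources used here. Pairs of libraries shared at most 3 barcodes. Epithelial cells were assigned to G1, S or G2/M by scoring genes that include no histone gene. Cells with neither the S nor the G2/M score above 0 were called G1, and the others by the higher score. In each library 36.9% to 39.8% of cells lay near a boundary, so the phases are ranges of a score.

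Histone messages made up 4779 and 5054 CPM of epithelial UMIs in the Epcam+ Icam+ libraries and 2287 CPM in the Epcam+ library. Their make-up differed more than their sum. In the Epcam+ library a single H2A gene, Hist1h2ap, supplied 77.2% of histone UMIs, against 14.3% and 14.8% in the Epcam+ Icam+ libraries. The remaining 61 members summed to 4096 and 4306 CPM in the Epcam+ Icam+ libraries and to 520 CPM in the Epcam+ library (exact Poisson 95% interval 515 to 526, which covers counting error only). The linker H1 genes stood at 1847 and 1909 CPM against 90.7 CPM, and the H3 genes at 435 and 458 CPM against 45.3 CPM. The H4 genes stood at 599 and 640 CPM against 89.3 CPM and the H2B genes at 486 and 501 CPM against 174 CPM. The H2A genes other than Hist1h2ap stood at 729 and 798 CPM against 121 CPM. Every subtype sum but that of all H2A genes was thus higher in both Epcam+ Icam+ libraries than in the Epcam+ library.

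**Figure D1:**
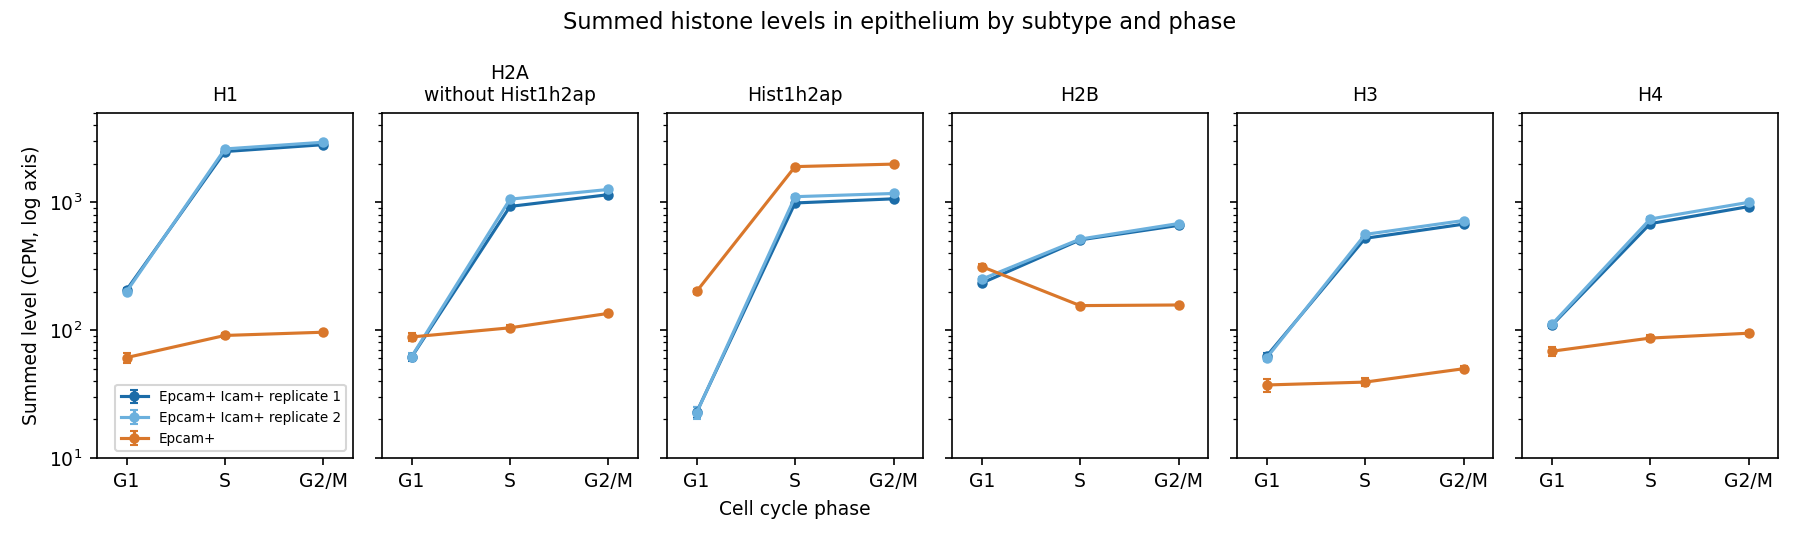
Summed CPM (log axis) of each histone subtype in epithelial cells of G1, S and G2/M, with Hist1h2ap drawn apart from the other H2A genes. Lines join the phases of 1 library and bars, mostly smaller than the points, are exact Poisson 95% intervals for counting error. In both Epcam+ Icam+ libraries every panel lies higher in S than in G1, while in the Epcam+ library Hist1h2ap is at 201 CPM in G1 and 1903 CPM in S and the H3 sum lies between 37.2 and 49.8 CPM.

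The question of cell cycle state was addressed by comparing S with G1 within libraries. In the Epcam+ Icam+ libraries the histone sum was 695 and 706 CPM in G1, 6125 and 6598 CPM in S, and 7299 and 7788 CPM in G2/M. In the Epcam+ library it was 770 CPM in G1, 2379 CPM in S and 2523 CPM in G2/M. Without Hist1h2ap the Epcam+ sums were 569, 476 and 533 CPM, with no increase from G1. Over 9 sums of counts (3 libraries by 3 phases, with the library as a block) edgeR's quasi-likelihood test called 51 of 59 tested members higher in S than in G1 and 3 lower at an adjusted p under 0.05, where 35.2% of all genes tested were called in either direction, 20.6% higher and 14.6% lower. The median log2 difference was 2.95 over the members and -0.01 over all genes. By DESeq2, 35 members were higher in S and 3 lower, with a members' median of 2.12. Without the Epcam+ library the members' median was 3.32.

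All 6 linker H1 genes were tested and 5 rose. Hist1h1b, which encodes the linker histone H1.5, stood at 101, 101 and 7.99 CPM in G1 and at 1384, 1501 and 39.4 CPM in S. It was higher in S in every library, but its S level in the Epcam+ library lay below the G1 level of the others. The log2 difference was 3.74 ± 0.15 (SE, adjusted p = 5.8e-09, edgeR). Hist1h1e (H1.4) rose by 3.36 ± 0.25, Hist1h1d (H1.3) by 4.00 ± 0.29 and Hist1h1a (H1.1) by 4.64 ± 0.21 on the log2 scale. These values pool unlike libraries. In the Epcam+ library alone their log2 ratios of S to G1, with 1 CPM added to each level, were 1.19, 0.12 and 1.21. Hist1h1c (H1.2) did not pass the test, at 1.15 ± 0.50 with an adjusted p of 0.0954 (edgeR). Its G1 levels were 27.4, 30.6 and 37.1 CPM and its S levels 109, 118 and 16.4 CPM, so S was higher in both Epcam+ Icam+ libraries and lower in the Epcam+ library.

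Of 15 tested H2A genes, 14 rose and 1 fell from G1 to S. Hist1h2ap went from 22.8, 22.5 and 201 CPM in G1 to 988, 1107 and 1903 CPM in S, a log2 difference of 4.57 ± 0.37 (adjusted p = 7.27e-07, edgeR). The increase was seen in every library, and both levels were highest in the Epcam+ library. Hist1h2ae, with 18.3, 20.2 and 20.4 CPM in G1, had nearly equal G1 levels in the 3 libraries. In S it stood at 545 and 623 CPM in the Epcam+ Icam+ libraries and at 43.8 CPM in the Epcam+ library, so the libraries separated in S. The log2 differences of Hist1h2ab and Hist1h2af were 4.63 ± 0.29 and 4.73 ± 0.35, against log2 ratios in the Epcam+ library alone of 0.54 and 1.73. Hist1h2ag rose by 0.70 ± 0.23 (adjusted p = 0.0333, edgeR), a call that was lost with DESeq2, as were those of Hist1h3e and Hist1h4h below.

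Of 16 tested H2B genes, 13 rose, 2 fell and Hist2h2be was not called. Hist1h2bn had the largest difference of any member, 4.82 ± 0.21 on the log2 scale (adjusted p = 1.17e-08, edgeR), from 1.5, 1.56 and 0.508 CPM to 45.3, 47.6 and 1.12 CPM. In the Epcam+ library both levels were at or below 1.12 CPM. Hist1h2bb, whose promoter is given above, had nearly equal G1 levels (2.52, 2.54 and 2.28 CPM) and stood at 59.4, 52.6 and 2.78 CPM in S (4.17 ± 0.37). Hist1h2bj rose by 3.66 ± 0.33, but its log2 ratio in the Epcam+ library alone was 0.47. Among the H3 genes 9 of 10 rose, including Hist1h3e (2.78 ± 0.35), Hist1h3c (2.92 ± 0.37), Hist1h3f (3.74 ± 0.28) and Hist1h3b (4.61 ± 0.20), and Hist1h3h was not called at 0.02 ± 0.30. Hist1h3e stood at 25.9, 25 and 8.50 CPM in G1 and at 202, 212 and 6.68 CPM in S, with no higher level in S in the Epcam+ library. In that library the log2 ratios of Hist1h3c, Hist1h3f and Hist1h3b were 0.30, -0.03 and 0.84. Among the H4 genes 10 of 12 rose, with a median of 2.24, below the medians of the other subtypes, a difference that was not tested. Hist1h4d went from 49.1, 47.0 and 9.39 CPM to 404, 452 and 22.3 CPM (3.0 ± 0.21, adjusted p = 1.69e-07, edgeR), and Hist1h4h and Hist1h4i rose by 2.28 ± 0.24 and 1.21 ± 0.18. The log2 ratios of Hist1h4h and Hist1h4i in the Epcam+ library alone were 0.004 and 0.39. Hist1h4f and Hist1h4j were not called.

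**Figure D2:**
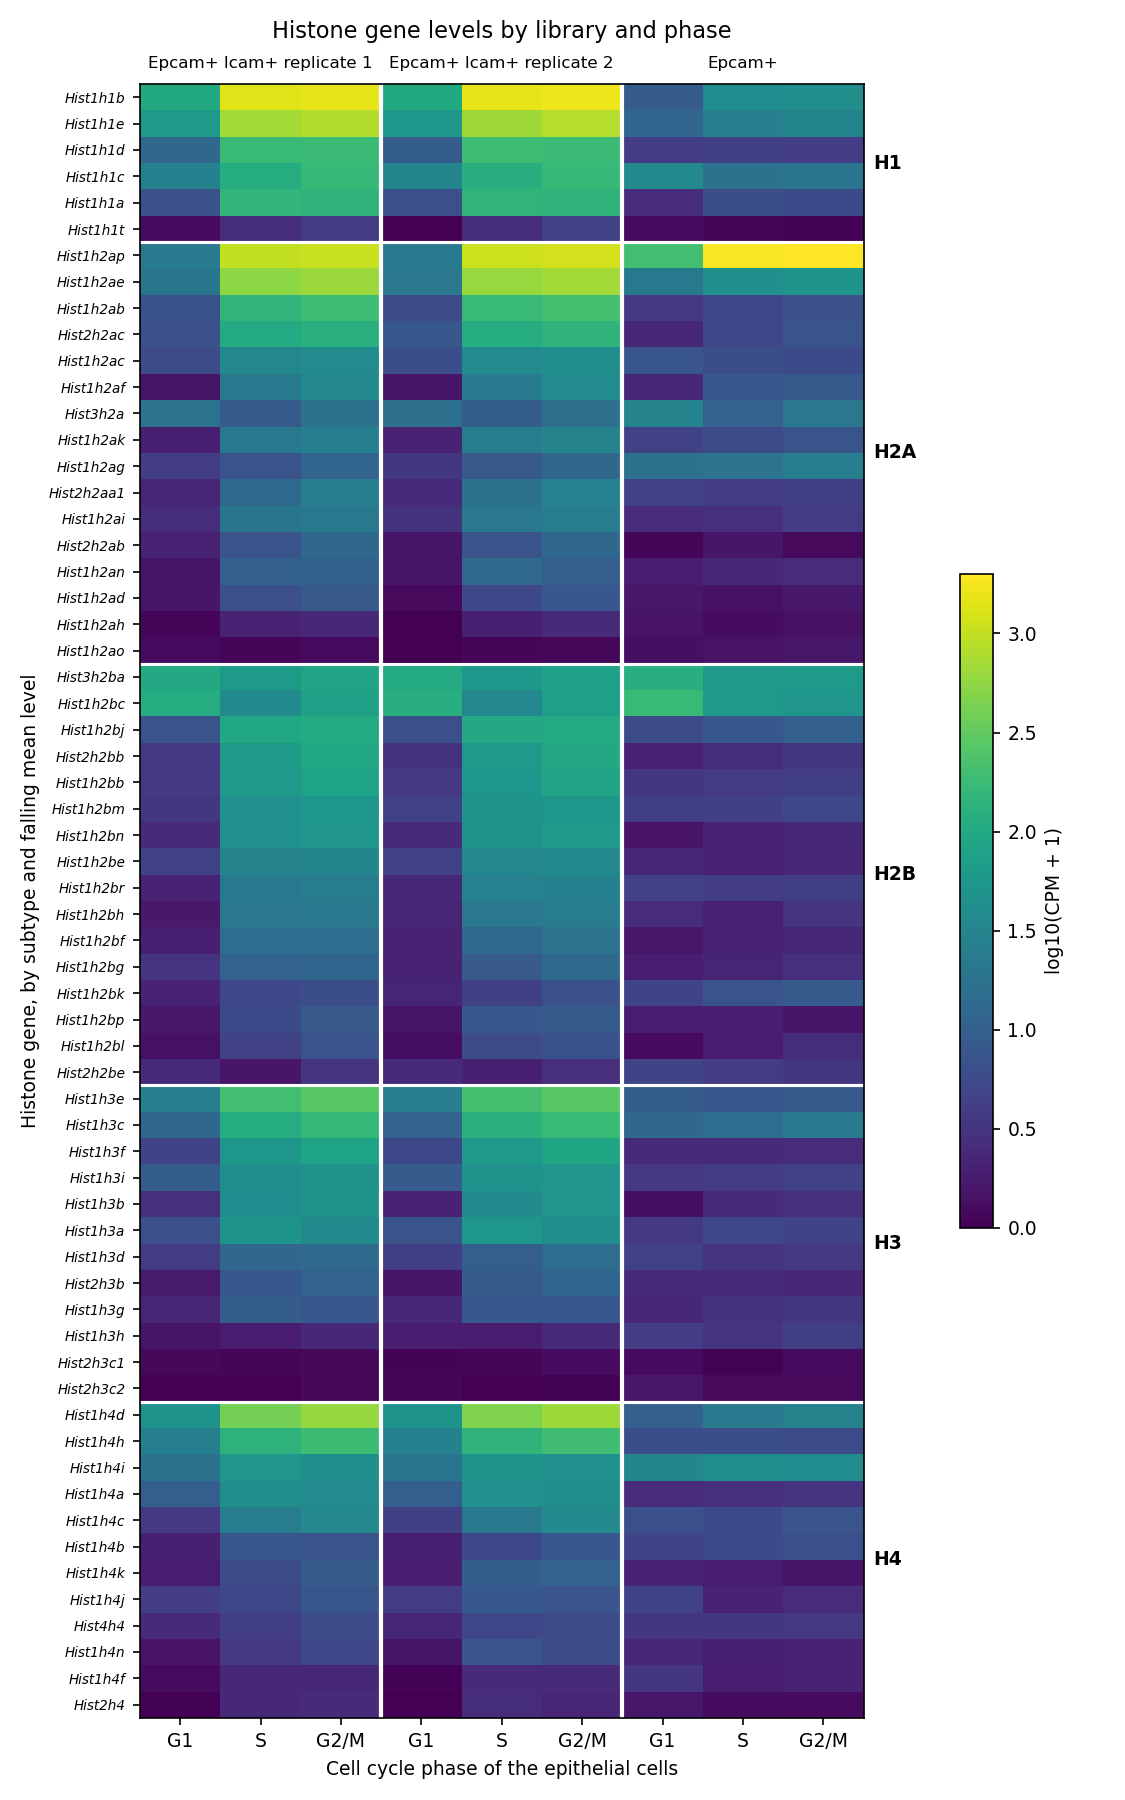
Heat map of log10(CPM + 1) for the 62 histone genes (rows, grouped by subtype and ordered by mean level) in epithelial cells of G1, S and G2/M of each library (columns). Most rows brighten from G1 to S and G2/M in both Epcam+ Icam+ libraries, whereas in the Epcam+ library Hist1h2ap is the row that reaches 1903 CPM in S.

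The 3 members that fell from G1 to S were Hist1h2bc, Hist3h2a and Hist3h2ba. Hist1h2bc, an H2B gene with 2 annotated exons and no stem-loop match in its annotated UTR, stood at 110, 121 and 167 CPM in G1 and at 36.3, 33.1 and 61.5 CPM in S. Its S level was lower than its G1 level in every library, and the log2 difference was -1.50 ± 0.20 (adjusted p = 5.55e-05, edgeR). Hist3h2a, an H2A gene, went from 17.0, 15.7 and 28.7 CPM to 7.73, 8.43 and 9.90 CPM (-1.19 ± 0.12). Its neighbour on chromosome 11, the H2B gene Hist3h2ba, went from 96.2, 102 and 120 CPM to 62.1, 56.3 and 60.5 CPM (-0.78 ± 0.09). Both fell in all 3 libraries, with no overlap between the phases. Both have a stem-loop match, followed by 1643 annotated bases in Hist3h2a and 169 in Hist3h2ba, and both carry a poly(A) signal in the last 40 bases.

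Comparing G2/M with G1, 53 of 59 members were higher and 2 lower, where 42.2% of all genes tested were called, 24.5% higher and 17.7% lower, with a members' median of 3.28. The 2 lower members were Hist1h2bc and Hist3h2ba. By DESeq2, 45 members were higher in G2/M and 2 lower, with a members' median of 2.53. Between S and G2/M, 0 members were higher in S and 5 were lower by edgeR's quasi-likelihood test (1 and 15 at an unadjusted p under 0.05, 0 and 2 by DESeq2), where 13.5% of all genes were called, 6.38% higher and 7.09% lower, and the members' median was -0.31. Those 5 were Hist2h2bb, Hist3h2a, Hist1h2bl, Hist1h2ag and Hist1h3b. The count in this comparison moved from 1 to 29 between settings, as given in the closing section. When the epithelial cells were split by which score lay above 0, the histone sum was highest in cells with both scores above 0, at 10919, 11909 and 3155 CPM. It was 1834, 2307 and 1222 CPM in cells with only the S score above 0, and 5198, 5843 and 2100 CPM in cells with only the G2/M score above 0. Of the 902, 783 and 1252 cells called G2/M, 645, 571 and 780 were of this last kind. The others had both scores above 0, so the G2/M sums are not levels after replication alone. After each cell was thinned to 3000 UMIs, the median cell held 2, 2 and 1 histone UMIs in G1, 6.5, 7.5 and 4 in S and 16, 19 and 5.5 in G2/M. Unthinned medians were 10, 10 and 11 in G1, 44, 47 and 32 in S and 135.5, 151 and 61.5 in G2/M.

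The size of the S to G1 difference itself differed between the 2 Epcam+ Icam+ libraries and the 1 Epcam+ library. The Epcam+ library has no replicate, so the spread in this test rests on the Epcam+ Icam+ pair, with 2 residual degrees of freedom. In the interaction test of edgeR, 43 of 61 members had a higher log2 difference in the Epcam+ Icam+ libraries and 0 a lower one (52 and 1 at an unadjusted p under 0.05, 37 and 0 by DESeq2), where 3.84% of all genes tested were called, 2.31% higher and 1.53% lower. The members' median interaction was 3.01 against -0.04 over all genes, and with cells near a phase boundary left out 19 members had a higher difference and 1, Hist1h2bc, a lower one (-0.64). Counted per library, with a pseudocount of 1 CPM and at least 20 UMIs, 47 of 54 and 49 of 54 members were at least 2-fold higher in S in the Epcam+ Icam+ libraries. In the Epcam+ library 8 of 53 were at least 2-fold higher and 4 at least 2-fold lower, with a median log2 ratio of 0.09. The members' medians in the other libraries were 2.75 and 2.76. These ratios were not counted over all genes, so no share over all genes stands beside the per-library counts. The interaction was largest among the most abundant members for Hist1h2ab (4.06 ± 0.49) and Hist1h1d (3.91 ± 0.52), and was 2.22 ± 0.07 for Hist1h2ap (adjusted p = 5.22e-17, edgeR). Hist1h2bc and Hist3h2ba were not called here, at -0.35 ± 0.11 and 0.18 ± 0.10.

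**Figure D3:**
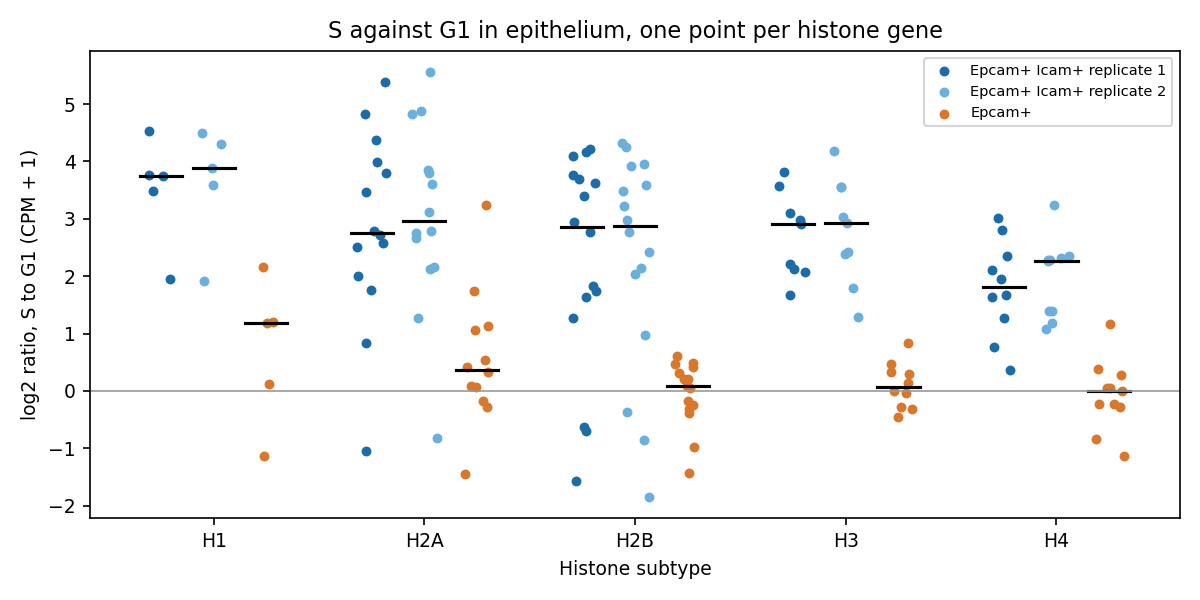
Each point is 1 histone gene with at least 20 UMIs, placed by the log2 ratio of its S to its G1 level (CPM + 1) in epithelial cells, by subtype and library, and black lines are medians. Points of both Epcam+ Icam+ libraries lie around medians of 2.75 and 2.76 over all subtypes, and those of the Epcam+ library around 0.09, with Hist1h2ap as its highest point.

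Over all epithelial cells, edgeR called 50 of 61 tested members higher in the Epcam+ Icam+ libraries and 10 lower. Here 76.8% of all genes tested were called, 39% higher and 37.8% lower, and the spread rests on the 2 Epcam+ Icam+ libraries, with 1 residual degree of freedom. The median log2 difference was 2.35 over the members and 0.04 over all genes. Cells called S or G2/M made up less of the epithelium in the Epcam+ Icam+ libraries. G1 cells were 43.3%, 44.6% and 15.9% of it, S cells 14%, 14.4% and 30.9%, and G2/M cells 42.6%, 41.0% and 53.2%.

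All 6 H1 genes were higher in the Epcam+ Icam+ libraries, with a median log2 difference of 4.25. Hist1h1b stood at 995, 1059 and 37.0 CPM (4.69 ± 0.05, adjusted p = 6.42e-20, edgeR), and Hist1h1d at 116, 116 and 3.07 CPM, the largest difference of any member (5.14 ± 0.06). The 2 Epcam+ Icam+ libraries differed little from each other for these genes and lay far above the Epcam+ library. Hist1h1t had 79, 82 and 8 UMIs and passed the low-count filter only through the Epcam+ Icam+ libraries. Of the H2B genes 14 of 16 were higher, among them Hist1h2bn (4.78 ± 0.11) and Hist2h2bb (4.72 ± 0.08). Of the H3 genes 9 of 11 were higher, led by Hist1h3f at 49.2, 52.2 and 1.56 CPM (4.91 ± 0.09). Hist1h3e stood at 174, 182 and 7.37 CPM and Hist1h3c at 98.7, 106 and 18.5 CPM. Of the H4 genes 9 of 12 were higher, among them Hist1h4d at 373, 400 and 24.8 CPM and Hist1h4h at 119, 125 and 4.99 CPM. Of the H2A genes 12 of 16 were higher, including Hist1h2ae at 404, 442 and 44.8 CPM and Hist1h2ab at 115, 130 and 4.78 CPM.

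Lower in the Epcam+ Icam+ libraries were 4 H2A genes, 2 H2B genes, 2 H3 genes and 2 H4 genes. Hist1h2ap stood at 683, 748 and 1766 CPM (-1.41 ± 0.04, adjusted p = 1.6e-14, edgeR). Hist1h2ag stood at 7.38, 7.65 and 22.3 CPM (-1.67 ± 0.07), and its level in the Epcam+ library exceeded both others. Hist1h3h (-1.52 ± 0.20) and Hist1h2ao (-1.75 ± 0.50) were also lower, at levels of at most 2.90 and 0.564 CPM. Hist2h3c2 (-1.77 ± 0.67) had 4, 3 and 18 UMIs (0.0853, 0.0704 and 0.254 CPM). It passed the low-count filter only through the Epcam+ library, so the filter favoured its call as lower and no difference is read from it. The calls of Hist1h2ao and Hist2h3c2 were lost with DESeq2. Hist1h4i differed little, with 35.3, 36.2 and 39.4 CPM (-0.24 ± 0.05), and was not called when only named epithelial clusters were used. The members with small differences included Hist3h2ba at 84.3, 82.2 and 68.3 CPM (0.18 ± 0.04) and Hist1h2bc at 82.4, 84.0 and 67.4 CPM (0.20 ± 0.04), both called higher by edgeR and neither by DESeq2. For Hist1h2bc the difference was -0.18 when only named epithelial clusters were used. Hist1h4f was not called and Hist2h3c1 was not tested.

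**Figure D4:**
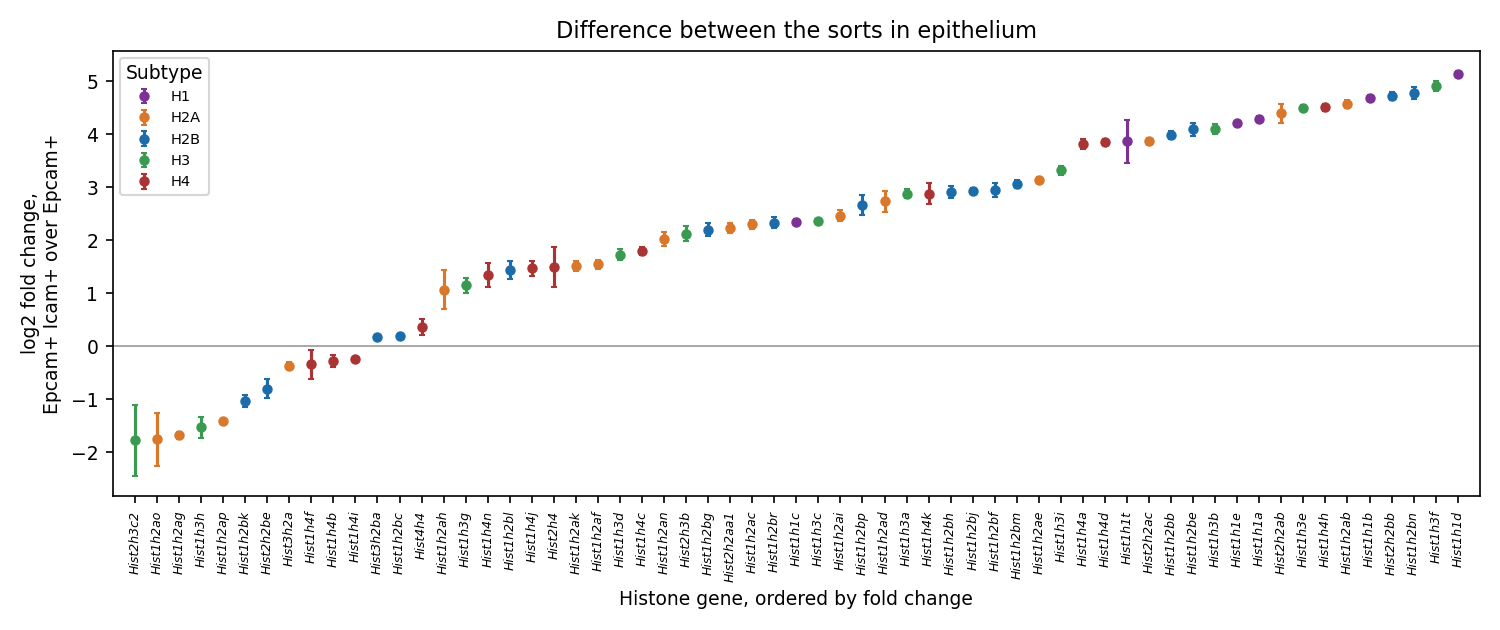
Log2 fold change of each tested histone gene in epithelial cells, Epcam+ Icam+ over Epcam+, ordered by size and coloured by subtype, with bars of 1 SE. Values run from -1.77 for Hist2h3c2 to 5.14 for Hist1h1d, and all 6 H1 genes lie above 2. Hist2h3c2 passed the low-count filter only through the Epcam+ library.

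With the phase held, about as many members were higher as lower between the sorts in G1, while most were higher in the Epcam+ Icam+ libraries in S and G2/M. In G1 cells 17 of 54 members were higher and 16 lower in the Epcam+ Icam+ libraries, where 63.9% of all genes tested were called, 33.1% higher and 30.7% lower, with a members' median of -0.18 and single members from -3.82 to 3.64. In S cells 47 of 58 were higher and 6 lower (all genes 71.9% called, 36% higher and 35.9% lower, members' median 2.93). In G2/M cells 50 of 60 were higher and 6 lower (all genes 75.2% called, 37.9% higher and 37.3% lower, members' median 2.99). Hist1h2ap went against this, with its largest difference in G1, at -3.17 ± 0.07, against -0.94 ± 0.04 in S and -0.94 ± 0.04 in G2/M. Hist1h2ae had a difference of -0.11 ± 0.13 in G1, which was not called, and was higher by 3.66 ± 0.07 in S. The H1 genes did not share the pattern in G1, where 4 of 5 tested were higher, among them Hist1h1b by 3.64 ± 0.12. Hist1h2bc was lower in G1 (-0.55 ± 0.07) and S (-0.90 ± 0.08) and higher in G2/M (0.41 ± 0.05). The median of the members in G1 was 0.33 when cells near a phase boundary were left out.

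Cell classes were rebuilt by clustering each library without histone genes and named from marker lists, so class levels are a description without a test. They depend on which cells a class takes in: under a clustering resolution of 2, a stricter cell filter or doublets kept, 33 of the class sums per library moved beyond their counting interval and 20 did not. The sums counted were those of all epithelium and of the airway, alveolar type 1, distal tip, macrophage, mast and basophil and mesenchyme classes. Airway-like cells held 1960, 2738 and 1403 CPM of histone messages, and Hist1h2ap made up 243, 321 and 783 CPM of these. The order of the sorts was not stable in this class, since the sums were 1331, 1350 and 1714 CPM with the stricter cell filter and 2412, 928 and 1908 CPM with doublets kept. They were mostly in G1 in the Epcam+ Icam+ libraries (68.2% and 62.6%) and less so in the Epcam+ library (39.4%). Within G1 the airway-like sums were close, at 694, 742 and 729 CPM. In G2/M they were 4618, 6465 and 1783 CPM. Alveolar type 1-like cells, named in both Epcam+ Icam+ libraries and not in the Epcam+ library under any of these settings, held 8453 and 7102 CPM. This class included clusters led by histone and DNA replication genes, and its sums were 4930 and 13814 CPM at a clustering resolution of 2. Alveolar type 2-like cells, 247 of them named in Epcam+ Icam+ replicate 2, held 6186 CPM. In that replicate the sum was 1049 CPM at a resolution of 2, 1253 CPM with the stricter filter and 935 CPM with doublets kept. Under the same settings the class was also named in replicate 1, at 6646, 2704 and 7871 CPM. Distal tip-like cells, 603 of them named in the Epcam+ library, held 2295 CPM, of which Hist1h2ap supplied 1855 CPM, with 67.3% of cells in G2/M and 3.65% in G1. At a resolution of 2 this class was also named in both Epcam+ Icam+ libraries (391 and 229 cells, with 6783 and 3566 CPM). It was named in replicate 1 of these with the stricter filter and with doublets kept too (119 and 230 cells, with 1139 and 5034 CPM). Epithelial clusters that took no name held 675, 297 and 1480 cells, which is most of the Epcam+ epithelium. Their histone sums were 2228, 895 and 2415 CPM, highest in the Epcam+ library, unlike the sums over all epithelium. Hist1h2ap supplied 264, 31.4 and 1876 CPM of these, so the other members were again lowest in the Epcam+ library, at 1964, 863 and 539 CPM. Mast and basophil-like cells, 23 to 30 per library, held 1627, 1108 and 2086 CPM.

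**Figure D5:**
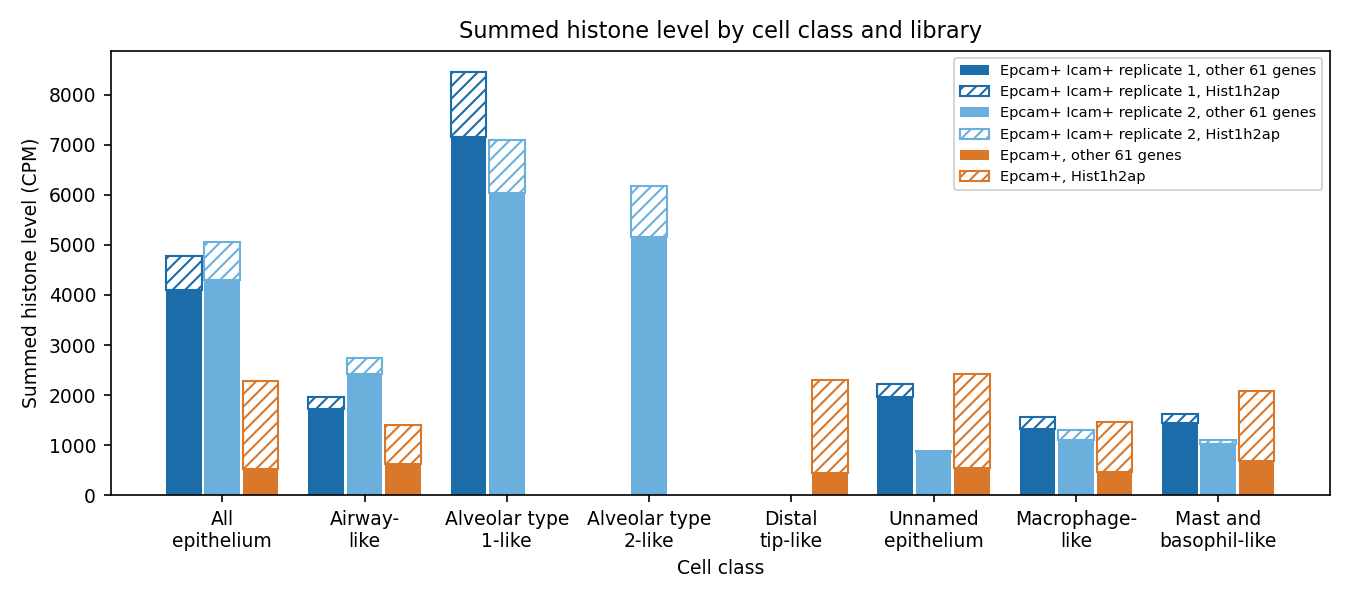
Bars give the summed histone level (CPM) of each cell class and library, split into Hist1h2ap (hatched) and the other 61 genes (solid). The hatched part is the larger part of every Epcam+ bar, as in macrophage-like cells where it is 1001 of 1471 CPM, and is the smaller part of every Epcam+ Icam+ bar.

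Macrophage-like cells carried through the sorts numbered 564, 436 and 148. Their histone sums were 1558, 1299 and 1471 CPM, with Hist1h2ap at 234, 193 and 1001 CPM and the other members at 1324, 1106 and 471 CPM. The shift in make-up was thus also seen in this class, whose barcodes in the Epcam+ library held epithelial transcripts, as given below. The libraries differed in phase here, with 28.2%, 23.4% and 56.8% of these cells in G2/M. Within G1 the other members were close, at 492, 518 and 496 CPM, while Hist1h2ap stood at 38, 41 and 333 CPM. In G2/M the other members stood at 2718, 2507 and 474 CPM. In edgeR's test 27 of 55 members were higher in the Epcam+ Icam+ libraries and 6 lower, where 59.2% of all genes tested were called, 31.2% higher and 28% lower, with a members' median of 0.97. That median was 2.13, with 23 of 51 members higher and 2 lower, in barcodes under 100 CPM of Epcam, which are described below. Hist1h1b was higher by 3.6 ± 0.17 (255, 191 and 20.0 CPM) and Hist1h2ap lower by 2.11 ± 0.07 (log2 difference -2.11). Hist3h2ba was lower (-1.19 ± 0.13), against 0.18 in epithelium. The test of epithelial minus macrophage sort difference called 22 of 62 members higher and 0 lower (edgeR, with 32 and 0 at an unadjusted p under 0.05, and 11 and 0 by DESeq2), where 30.2% of all genes were called, 10.1% higher and 20.1% lower. The macrophage-like barcodes of the Epcam+ library held epithelial transcripts, with Epcam at 434 CPM against 156 and 138 CPM in the other libraries, and Ptprc at 30.7 CPM against 100.2 and 95.8 CPM. In barcodes under 100 CPM of Epcam (413, 323 and 42 cells) the other members stood at 1395, 1218 and 410 CPM and Hist1h2ap at 245, 227 and 402 CPM, and 2 members were called in the comparison with epithelium.

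The machinery that acts on histone messages was followed in 32 genes for their transcription, 3′ processing and chaperones. In S against G1, 24 of the 32 rose and the other 8 were not called, where 35.2% of all genes tested were called and 20.6% were higher. The median log2 difference was 0.54. Asf1b, a chaperone of H3 and H4, rose by 3.04 ± 0.24, from 1.20, 2.34 and 10.3 CPM to 19.2, 25.1 and 50.3 CPM. Ccne2, cyclin E2, rose by 3.0 ± 0.18, but it is one of the genes that scored S phase. Genes used in the scoring were not taken out of the count of 24. Slbp, left out of the scoring, went from 51.6, 46.2 and 147 CPM to 165, 164 and 306 CPM (1.53 ± 0.10). All 3 were also higher in S than in G1 within the Epcam+ library, where Slbp and Asf1b stood above the other libraries in both phases.

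Between the sorts, 12 of the 32 were higher and 17 lower in the Epcam+ Icam+ libraries, with a median of -0.20, where 76.8% of all genes tested were called, 39% higher and 37.8% lower. Npat, the coactivator of histone gene transcription, stood at 37.4, 34.4 and 11.4 CPM (1.54 ± 0.06), and Supt16, a subunit of the FACT chaperone, was higher by 0.94 ± 0.03. Slbp stood at 89.99, 85.9 and 221.5 CPM (-1.44 ± 0.03) and Asf1b at 12.8, 12.9 and 37.6 CPM (-1.65 ± 0.06). Slbp and Asf1b thus differed in the direction opposite to the members' median. In the interaction test 9 of the 32 had a higher S to G1 difference in the Epcam+ Icam+ libraries, where 3.84% of all genes tested were called and 2.31% had a higher one.

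Replacement histones, whose messages are mostly polyadenylated and made outside S phase too, were followed in 11 genes. In S against G1, 7 of 11 rose and the other 4 were not called, with a median of 0.27, where 35.2% of all genes tested were called and 20.6% were higher. H2afx, the variant phosphorylated at DNA breaks, rose by 1.41 ± 0.19, and H2afz (H2A.Z) rose by 0.84 ± 0.08. Between the sorts 4 were higher and 7 lower in the Epcam+ Icam+ libraries, where 76.8% of all genes tested were called, 39% higher and 37.8% lower. H3f3a, which encodes H3.3, stood at 2766, 2740 and 1792 CPM (0.52 ± 0.04), and H2afj was higher by 0.21 ± 0.03. H1f0 (linker histone H1.0) stood at 110, 108 and 230 CPM (-1.18 ± 0.03), and H2afy2 (macroH2A2) was lower by 1.09 ± 0.03 (log2 difference -1.09). The medians over the 11 replacement genes and the 61 tested members were -0.48 and 2.35.

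Members were also counted by annotated end and by position, with no test between these groups. Over all genes tested, 20.6% rose and 14.6% fell in S against G1, and 39% were higher and 37.8% lower between the sorts. Among the 23 members with over 100 bases beyond the stem-loop, 17 of 21 tested rose and 2 fell in S against G1 (median 2.37), and 19 of 22 were higher and 3 lower between the sorts (median 2.33). Among the 21 with at most 100 bases beyond it, 19 of 20 rose (median 2.97), and 15 of 21 were higher and 5 lower between the sorts (median 2.67). Of the 7 with an annotated UTR but no stem-loop match, 5 rose and 1 fell (median 2.91), and 6 were higher and 1 lower between the sorts (median 1.55). Of the 11 with no annotated UTR, 10 rose (median 3.19), and 10 were higher and 1 lower between the sorts (median 2.88). On chromosome 13, 15 of 21 members of the block starting at 21715763 were higher and 6 lower between the sorts, and in the block starting at 23531050, 27 of 29 were higher and 1 lower. The 6 lower members of the first block were Hist1h2ap, Hist1h3h, Hist1h2ao and 3 genes that lie side by side. These were Hist1h2bk at chr13:22035870-22036345, Hist1h4i at chr13:22040636-22041362 and Hist1h2ag at chr13:22042460-22042944. The members on either side of them, Hist1h2ah (0.87, 0.91 and 0.39 CPM) and Hist1h2bj (66.4, 67.1 and 8.13 CPM), were higher in the Epcam+ Icam+ libraries. On chromosome 3, 6 of 8 tested members were higher and 2 lower between the sorts, and 6 of 7 rose from G1 to S. On chromosome 11 both Hist3h2a and Hist3h2ba fell from G1 to S.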

How the data were processed

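Per the labels' protocols the 3′ libraries were made with the Chromium v3 kit and sequenced on a NovaSeq6000. The authors deposited raw UMI counts per gene and barcode. The file headers carry software versions 5.0.1 for both Epcam+ Icam+ libraries and 3.0.2 for the other, while the submitters' processing notes name Cell Ranger 2.1.1 and mm10. The sources used here do not give the gene annotation, the barcode threshold or the handling of reads with several matches.

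Counts were restricted to the 30406 shared genes. Barcodes with at least 1000 UMIs, 500 genes and at most 10% mitochondrial UMIs were kept (3400, 3167 and 2990). The doublet caller's own threshold marked 0 barcodes, so those with the highest doublet scores were left out at 0.8% per 1000 barcodes (129, 115 and 88). Each library was clustered (scanpy 1.11.5, igraph 0.11.9, resolution 1) without histone, mitochondrial, ribosomal protein, cell cycle, Epcam and Icam1 genes. Clusters were called by a name ending in -like from marker lists, and epithelial or macrophage clusters whose median depth was under 0.333 times their library's were left out. Phases came from scanpy scores on cells thinned to 3000 UMIs, with Slbp, Nasp and Casp8ap2 taken out of the lists.

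Counts were summed over cells per library, class and phase and tested with edgeR 4.0.16 (quasi-likelihood F test, TMM, filterByExpr, Benjamini-Hochberg over all genes tested, threshold 0.05). Standard errors are the log2 fold change divided by the root of F. Depth ranged from 67843828 to 84460347 UMIs per library. Alternatives were DESeq2 1.42.0, another scaling, no filter, other cell filters, clusterings (which also change the class levels) and phase calls, and each library left out. The fits were tested on simulated data. Named members are the 3 highest by mean CPM per subtype and, for S against G1 and the sort, the 5 largest differences in each direction. Other members named were chosen after their values were seen. The members and lists were chosen with earlier results of these data known.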

Additional observations from a re-analysis of the deposited data

Results flagged for a closer look

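The log2 difference of S minus G1, with its sign, was higher in the Epcam+ Icam+ libraries than in the Epcam+ library for 43 members, by a test of the interaction in edgeR. Among the most abundant members the interaction on the log2 scale was 1.47 for Hist1h1b, 3.91 for Hist1h1d and 2.23 for Hist1h1e. It was 4.06 for Hist1h2ab, 3.76 for Hist1h2ae, 2.22 for Hist1h2ap and 3.42 for Hist1h2bj. Among the H3 genes it was 3.04 for Hist1h3c, 3.31 for Hist1h3e and 3.86 for Hist1h3f, and among the H4 genes 1.84 for Hist1h4d, 2.32 for Hist1h4h and 1.13 for Hist1h4i.

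The log2 sort difference (Epcam+ Icam+ minus Epcam+) was higher in epithelium than in macrophage-like cells for 22 members, again by a test of the interaction. Higher is meant with its sign, since for Hist1h2ap the difference was -1.41 in epithelium and -2.11 in macrophage-like cells, and for Hist3h2ba 0.18 and -1.19. The values of the interaction on the log2 scale were 0.98 for Hist1h1b, 0.96 for Hist1h2ae, 0.59 for Hist1h2ap, 1.44 for Hist1h2bj, 1.43 for Hist1h3c, 0.76 for Hist1h4d and 1.25 for Hist3h2ba. With macrophage-like barcodes under 100 CPM of Epcam, 2 members were called.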

How the results depend on the processing

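The counts of members called kept within 1.5 times of the value reported in 105 alternatives, rose beyond it in 5 and fell below it in 10. The count for S against G2/M, 5 as reported, was 2 with DESeq2, 29 without the low-count filter, 10 with phases scored on all UMIs, 8 with Slbp, Nasp and Casp8ap2 in the phase lists, 3 with phases scored within each library and 15 with cells near a boundary left out. Leaving out 1 library gave 1 to 28 members in that comparison, with 28 without the Epcam+ library, 42 to 57 for S against G1 and 50 to 57 for G2/M against G1. With cells near a boundary left out, the interaction of phase and sort had 20 members and the sort difference in G1 had 19. DESeq2 gave 15 members for the sort difference in G1, 20 in macrophage-like cells and 11 for epithelial minus macrophage sort difference, and the last was 2 with macrophage-like barcodes under 100 CPM of Epcam, an alternative chosen after seeing the data. Signs turned for Hist1h2bc between the sorts with named epithelial clusters only (-0.18), and for Hist1h2bn (-1.88) and Hist2h2bb (-2.35) in the interaction with cells near a boundary left out. With macrophage-like barcodes under 100 CPM of Epcam, they turned for Hist1h2bc in macrophage-like cells (-0.16) and, in epithelial minus macrophage sort difference, for the members' median (-0.26), Hist1h1b (-0.44), Hist1h2ag (-0.20), Hist1h2ap (-0.80) and Hist1h4d (-0.29). The cause was not tested. Leaving out either Epcam+ Icam+ library leaves 0 residual degrees of freedom between the sorts, so only log2 values were had, and the members' median in epithelium was then 2.26 and 2.41. No paired analysis was possible because the Epcam+ group has 1 library and the groups share a single replicate number.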

Other observations

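Barcodes in epithelial clusters of low depth were left out of the values above. They numbered 424, 116 and 220, with median depths of 2934, 2480 and 1849 UMIs. Their histone sums were 7689, 3019 and 3856 CPM, against 4779, 5054 and 2287 CPM in the epithelial cells used above, so they were higher in 2 libraries and lower in Epcam+ Icam+ replicate 2. In the Epcam+ library the members other than Hist1h2ap stood at 2370 CPM in these barcodes, against 520 CPM in the epithelial cells used above. The H1 genes there stood at 527 CPM against 90.7 CPM and the H4 genes at 712 CPM against 89.3 CPM. Low-depth barcodes called G2/M were 64.4%, 50.9% and 68.6% of these, from scores on few UMIs.

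Other cells carried through the sorts also differed in make-up. Mesenchyme-like cells (44, 56 and 36) held 9255, 6339 and 3447 CPM, of which Hist1h2ap supplied 1344, 647 and 2621 CPM. Their median depths were 2186, 2192 and 24159 UMIs, so the libraries are not matched for this class. Neuroendocrine-like cells, 35 in the Epcam+ library alone, held 1735 CPM, with 48.6% of cells in G1. Erythroid-like cells, 302 in Epcam+ Icam+ replicate 2 and 121 in the Epcam+ library, held 8272 and 1686 CPM. Hist1h2ap supplied 828 and 1227 CPM of these, and median depths were 2833 and 11164 UMIs. At a resolution of 2 this class in replicate 2 held 345 cells with a median depth of 21367 UMIs. The G2/M epithelial cells of that replicate then numbered 591 against 783, so the epithelial set depends on the clustering.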
